A study of Rattus norvegicus with 4 samples.

Results

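The genes described here are 10 rows of the deposited count table, taken by gene symbol: Acly, Acss2, Acaca, Fasn, Scd, Elovl5, Elovl6, Fads1, Fads2 and Me1. They are 10 of 32883 annotated genes, each symbol stood on 1 row, and 9 of the 10 passed the filter on low counts, each with at least 1163 counts in every library. The cells were HSC-T6, an immortalised rat hepatic stellate cell line. Hepatic stellate cells are the liver cells that deposit matrix in fibrosis. RNA sequencing covered 2 libraries of cells given GRK1, which the series title spells out as ginsenoside RK1 (a ginseng saponin), and 2 libraries of cells with no treatment. The labels give no dose, duration, vehicle or passage, and leave unsaid whether replicate libraries were made from separate cultures. The p-values therefore cover the spread between libraries alone, which could be technical, and n = 2 per group holds throughout.

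Fatty acid synthesis starts from acetyl-CoA in the cytosol, which is carboxylated to malonyl-CoA and condensed on fatty acid synthase into palmitate. Palmitate is then lengthened by elongases of the endoplasmic reticulum and given double bonds by desaturases, and a separate elongase and desaturase series turns dietary linoleic and linolenic acids into highly unsaturated fatty acids. Most of these genes are known targets of the SREBP transcription factors. In stellate cells, stored retinyl esters and lipid droplets are features of the quiescent state and are lost on activation.

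Total counts were 18008586 and 18125005 in the GRK1 libraries and 20430930 and 18175053 in the untreated libraries. CPM are counts scaled to library size, with totals adjusted by TMM, a trimmed-mean normalisation, and 3 counts correspond to at most 0.167 CPM in any library. The line was checked against marker genes. Vim (vimentin) averaged 1206 ± 42 CPM in GRK1 and 1276 ± 4.3 CPM in untreated libraries (mean ± SD). The collagen genes Col1a1 and Col3a1 were abundant, though both fell (log2 fold change -0.59 and -0.88). Several other markers on the list were low. Acta2 had 16 and 6 counts in GRK1 against 73 and 56 in untreated libraries and fell. Gfap fell too, with 22 and 12 counts in GRK1 against 80 and 55 in untreated libraries. Dcn (-0.99) and Lum (-1.37) were also low and fell. Des had 134 and 121 counts in GRK1 against 119 and 92 in untreated libraries and did not pass the test. Lrat, the retinol-esterifying enzyme of quiescent stellate cells, had 0 counts in all 4 libraries. Of 12 stellate and fibroblast markers 11 were tested, and 7 fell and 0 rose at an adjusted p under 0.05. Over all tested genes 10.5% fell and 11.5% rose. Summed levels of the list were 13556 and 13454 CPM in GRK1 libraries against 20996 and 19824 CPM in untreated libraries. Of 8 hepatocyte markers 4 had 0 counts in all libraries and 1 was tested, Tf (transferrin), with 893 and 887 counts in GRK1 and 1073 and 946 in untreated libraries (adjusted p = 0.22), and the list summed to 49.9 and 49.0 CPM in GRK1 against 53.1 and 52.3 CPM in untreated libraries. Alb (albumin) had 0 and 0 counts in GRK1 against 0 and 2 in untreated libraries. Of 7 macrophage markers 4 were at 0, Ptprc among them, and the list summed to 1.95 and 1.65 CPM in GRK1 against 1.13 and 1.70 CPM in untreated libraries, mostly from Cd68. Of 6 endothelial markers 5 were matched and 3 of those were at 0, Kdr among them, with sums of 0.668 and 0.988 CPM in GRK1 against 0.690 and 0.715 CPM in untreated libraries, mostly from Tek. The 5 bile duct markers summed to 2.95 and 2.74 CPM in GRK1 against 7.49 and 9.18 CPM in untreated libraries, mostly from Sox9. Sox9 fell (44 and 43 counts in GRK1 against 147 and 161 in untreated libraries, log2 fold change -1.74, adjusted p = 6.7e-04). Epcam had 0 and 0 counts in GRK1 against 0 and 1 in untreated libraries, and Krt19 had 4 and 4 against 0 and 2. Krt7 had 2 and 0 counts in GRK1 against 1 and 1 in untreated libraries, and Cftr had 3 and 3 against 4 and 2. The lower sum is thus that of Sox9, and whether Sox9 marks bile duct cells in this line was not tested. In bulk RNA, fewer cells of a type and less RNA per cell cannot be told apart, and the part of these marker changes in the results on lipid genes was not tested.

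All 9 tested genes rose with GRK1 and 0 fell, while Elovl6 was close to the detection floor in every library. The rises ran from 1.34-fold for Elovl5 to 2.58-fold for Scd. Each gene was tested by edgeR's quasi-likelihood method over all 12316 genes that passed the filter, and a gene counts as risen or fallen at a Benjamini-Hochberg adjusted p under 0.05. By that rule 11.5% of all tested genes rose and 10.5% fell, 22.0% together. The median log2 fold change was 0.65 over the 9 genes and 0.0011 over all tested genes. In each of the 9 genes both GRK1 libraries lay above both untreated libraries, and 63.0% of all tested genes had groups that did not overlap. Averaged over these genes, the libraries of a group lay close together. Their mean log2 level, centred on each gene's mean over the 4 libraries, was 0.36 and 0.36 in GRK1 libraries and -0.35 and -0.36 in untreated libraries. Single genes could differ more, such as Fads1 at 0.19 and 0.33 and Elovl5 at 0.26 and 0.16 in GRK1 libraries.

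**Figure D1:**
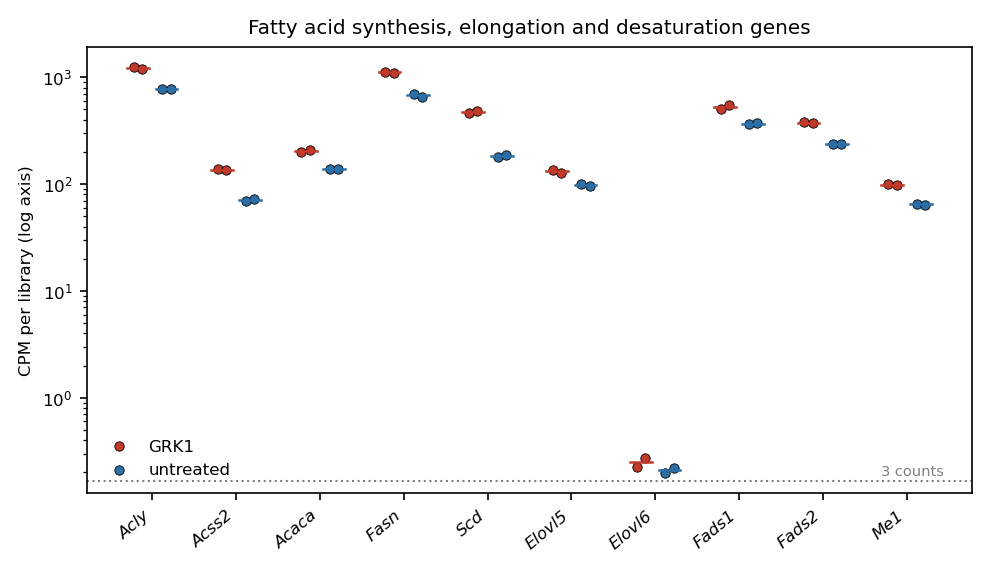
Level of each of the 10 genes in CPM on a log axis, with a point per library, GRK1 in red and untreated in blue, and a line at the mean of 2 libraries. The 9 tested genes are higher in both GRK1 libraries, and Elovl6 lies just above the level of 3 counts (dotted line) in all 4.

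Acetyl-CoA reaches this pathway from citrate and from acetate, and both supplying enzymes rose. Acly, ATP citrate lyase, which splits exported citrate into acetyl-CoA and oxaloacetate, had 1241 and 1204 CPM in GRK1 libraries against 780.2 and 778 CPM in untreated libraries. Both GRK1 libraries were well above the untreated pair, whose values nearly coincide. The change was 1.57-fold (log2 fold change 0.65 ± 0.04 SE, adjusted p = 6.9e-05). Acss2, the cytosolic and nuclear acetyl-CoA synthetase that activates acetate, had 137 and 135 CPM in GRK1 libraries against 70.2 and 72.5 CPM in untreated libraries. That gene rose 1.91-fold (0.93 ± 0.05, adjusted p = 4.1e-05), the second largest rise of the 9. The ratio of Acss2 to Acly counts, which needs no library scaling, was 0.111 and 0.112 in GRK1 libraries and 0.0900 and 0.0932 in untreated libraries. The acetate enzyme thus gained on the citrate enzyme in both GRK1 libraries, a difference described without a test because 2 against 2 libraries cannot pass an exact one. In Rnor_6.0 coordinates Acly (ENSRNOG00000016924) covers 88392248 to 88442845 of chromosome 10 on the minus strand. Acss2 (ENSRNOG00000018755) covers 151032952 to 151075856 of chromosome 3 on the plus strand, and an uncounted snoRNA gene lies within it on the other strand.

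Me1, the cytosolic malic enzyme, returns malate carbon to pyruvate and makes NADPH for the reductive steps of synthesis. Its level was 99.8 and 97.2 CPM in GRK1 libraries and 65.3 and 63.9 CPM in untreated libraries. The groups were well separated, and the rise was 1.52-fold (0.61 ± 0.05, adjusted p = 2.2e-04). Me1 (ENSRNOG00000009715, chromosome 8, 94256839 to 94368834, minus strand) is also a known target of the oxidant-response factor NRF2. Its promoter is shown because it holds the letters TGACTCAGC at positions -167 to -159, where 1 is the start, a match to TGACNNNGC, the core of the antioxidant response element. The 300 bases run from 250 before to 50 after the RefSeq start in GRCr8 (chr8:96540195-96540494, minus strand), 5′ to 3′. Capitals mark that match and 5 reverse-strand matches to the GC box GGGCGG. TGACNNNGC stood in 12.1% of all promoters, and such letters are not evidence of binding. A part of NRF2 in the rise of Me1 was not tested.
Me1: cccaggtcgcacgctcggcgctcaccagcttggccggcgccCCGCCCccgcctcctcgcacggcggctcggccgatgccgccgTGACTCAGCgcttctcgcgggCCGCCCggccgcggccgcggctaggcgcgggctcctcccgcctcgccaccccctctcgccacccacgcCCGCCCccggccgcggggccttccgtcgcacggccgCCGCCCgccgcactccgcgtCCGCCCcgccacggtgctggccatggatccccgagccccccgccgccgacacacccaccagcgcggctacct

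Both genes of the pair that commits acetyl-CoA to fat rose, Fasn by the larger fold change. Acaca, acetyl-CoA carboxylase alpha, which makes malonyl-CoA, had 199.7 and 207 CPM in GRK1 libraries against 137 and 137 CPM in untreated libraries. It rose 1.48-fold (0.56 ± 0.04, adjusted p = 2.2e-04). Fasn, the multifunctional synthase that builds palmitate, had 1132 and 1103 CPM in GRK1 libraries and 693 and 659.8 CPM in untreated libraries. Its rise was 1.65-fold (0.72 ± 0.04, adjusted p = 6.9e-05), with no overlap between the groups. The ratio of Fasn to Acaca counts was 5.67 and 5.34 in GRK1 libraries and 5.04 and 4.81 in untreated libraries, higher in both GRK1 libraries, and the gap between the group means was wider than the gap between the libraries of either group. Acaca (ENSRNOG00000034013) is at 71536533 to 71719910 on the plus strand and Fasn (ENSRNOG00000045636) at 109987735 to 110005901 on the minus strand, both on chromosome 10.

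Scd, the stearoyl-CoA desaturase that makes oleate and palmitoleate, rose most of the 9 genes. It had 460.2 and 487 CPM in GRK1 libraries against 181 and 187 CPM in untreated libraries. Every GRK1 value was far above the untreated values, and the change was 2.58-fold (1.37 ± 0.05, adjusted p = 1.6e-05), rank 74 among the rises of all 12316 tested genes. Scd counts per Fasn count were 0.406 and 0.441 in GRK1 libraries and 0.261 and 0.283 in untreated libraries, so the desaturase transcript gained on the synthase transcript within each GRK1 library.

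Scd (ENSRNOG00000013552) is 1 of 4 stearoyl-CoA desaturase genes that span 204596 bases of chromosome 1 (263968134 to 264172729). Scd2, the isoform known in rodents for its role in brain and skin, was by far the more abundant of the 2 main forms. Per exon length its level was 1518 ± 30 RPKM in GRK1 and 625 ± 3.2 RPKM in untreated libraries, against 106 ± 4.2 and 41.0 ± 0.95 RPKM for Scd in GRK1 and untreated libraries (RPKM is CPM per kilobase of exon). Scd2 had 7768 and 7553 CPM in GRK1 libraries against 3165 and 3142 CPM in untreated libraries, a 2.43-fold rise (1.28 ± 0.03, adjusted p = 5.4e-06). The 2 genes kept nearly the same proportion: the ratio of Scd to Scd2 counts was 0.0592 and 0.0644 in GRK1 libraries and 0.0571 and 0.0594 in untreated libraries, and these ranges overlap.

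The 2 other genes of the cluster had low counts. LOC681458, which the table describes as similar to stearoyl-CoA desaturase 3, had 90 and 95 counts in GRK1 libraries against 2 and 6 in untreated libraries. Its ratio of scaled counts was 24.6, with an exact 95% counting interval of 12.2 to 57.8, and it ranked 2 among the rises of all tested genes (4.57 ± 0.38, adjusted p = 3.1e-04). The size rests on the few untreated counts: the log2 fold change was 3.93 without untreated replicate 1 and 5.60 without untreated replicate 2. It was chosen for mention once its values were known. Scd4 had 6 and 3 counts in GRK1 libraries and 0 and 1 in untreated libraries, too few to test (ratio 9.57, interval 1.33 to 419.6). The 4 genes are close copies of each other, so reads could be divided between them and each value is uncertain to that extent. The ratio of LOC681458 to Scd2 counts was 6.4e-04 and 6.9e-04 in GRK1 libraries and 3.1e-05 and 1.0e-04 in untreated libraries. That ratio was added once the values were known, and its untreated side rests on 2 and 6 counts. Whether reads were shared among the 4 genes was not tested. Of 13 other tested genes within 500 kb of the cluster, 2 rose, Erlin1 (0.18, adjusted p = 0.044) and Slf2 (0.18, adjusted p = 0.032), and 0 fell, close to the 11.5% higher over all tested genes. Those neighbours, too, were chosen that way.

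Promoters of the 2 abundant forms are shown, and they differ in the motifs they hold. A link between these letter matches and the changes in level was not tested. Scd2 (chr1:253118127-253118426, plus strand, GRCr8) has CCAAT, the letters bound by NF-Y, at positions -97 to -93 and -54 to -50. Scd (chr1:253231682-253231981, minus strand) has no CCAAT in this window and 1 reverse-strand match to TGACNNNGC at positions -127 to -119. Capitals mark these matches.
Scd: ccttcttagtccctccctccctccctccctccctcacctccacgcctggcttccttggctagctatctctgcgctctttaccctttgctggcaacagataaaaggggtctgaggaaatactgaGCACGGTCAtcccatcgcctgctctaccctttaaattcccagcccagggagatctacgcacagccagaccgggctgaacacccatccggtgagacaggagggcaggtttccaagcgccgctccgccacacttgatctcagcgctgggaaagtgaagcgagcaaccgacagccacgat
Scd2: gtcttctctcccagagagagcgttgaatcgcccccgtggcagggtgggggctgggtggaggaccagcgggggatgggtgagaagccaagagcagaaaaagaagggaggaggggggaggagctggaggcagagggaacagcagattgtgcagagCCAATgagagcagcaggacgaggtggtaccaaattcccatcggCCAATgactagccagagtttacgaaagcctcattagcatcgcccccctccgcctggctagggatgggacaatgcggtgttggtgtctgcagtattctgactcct

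**Figure D2:**
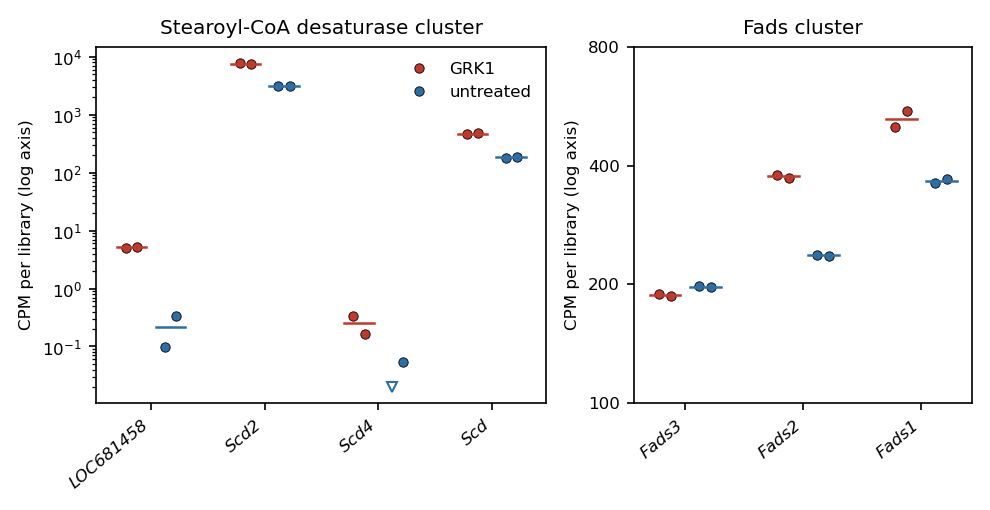
CPM per library on log axes for the 4 stearoyl-CoA desaturase genes (left) and the 3 Fads genes (right), each in chromosome order, with GRK1 in red, untreated in blue, lines at means and an open triangle for a library with 0 counts. On the left LOC681458, Scd2 and Scd rose and Scd4 had too few counts to test, and on the right Fads2 and Fads1 rose and Fads3 did not pass the test.

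Elongation was represented by 1 measurable member. Elovl5, which lengthens polyunsaturated acids between the desaturase steps, had 136 and 127 CPM in GRK1 libraries and 100.2 and 96.0 CPM in untreated libraries. It showed the smallest rise of the 9, 1.34-fold (0.42 ± 0.05, adjusted p = 0.0019), with groups that did not overlap. Elovl6, which lengthens palmitate to stearate, had 4 and 5 counts in GRK1 libraries against 4 and 4 in untreated libraries and did not pass the filter. Its ratio was 1.2 with an exact 95% counting interval of 0.41 to 3.56, so a difference within that range was not detectable at this depth. The table assigns Elovl6 (ENSRNOG00000010468, chromosome 2, 234189105 to 234296145, minus strand) 1112 bases of exon, and reads outside those exons were not counted. Elovl5 (ENSRNOG00000006331) lies on chromosome 8 at 85259982 to 85285983, plus strand.

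The desaturases of the polyunsaturated series, Fads2 for the first step and Fads1 for the later one, both rose. Fads2 had 378 and 373 CPM in GRK1 libraries against 238 and 237 CPM in untreated libraries, a 1.58-fold rise (0.66 ± 0.04, adjusted p = 8.7e-05). Fads1, which completes arachidonate, had 500.4 and 549 CPM in GRK1 libraries against 362 and 369.9 CPM in untreated libraries. The GRK1 libraries differed from each other more for Fads1 than for Fads2, and the change was 1.43-fold (0.52 ± 0.05, adjusted p = 7.5e-04). The ratio of Fads1 to Fads2 counts was 1.32 and 1.47 in GRK1 libraries and 1.52 and 1.56 in untreated libraries, lower in both GRK1 libraries. Here the gap between the group means was no wider than the gap between the GRK1 libraries.

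Their neighbour Fads3, a desaturase of sphingoid bases, lies 6080 bases from Fads2 on the chromosome and did not pass the test, at 189 and 186 CPM in GRK1 libraries and 198 and 197 CPM in untreated libraries (-0.07 ± 0.04, adjusted p = 0.25). The ratio of Fads2 to Fads3 counts was 2.0 in both GRK1 libraries and 1.2 in both untreated libraries, so the balance of these adjacent genes differed between the groups. Fads3 and that ratio were chosen for mention once their values were known, as were the neighbours named next. Of 17 other tested genes within 500 kb of the cluster, 5 fell and 1 rose, where 10.5% of all tested genes fell and 11.5% rose. On the log2 scale the largest falls were those of Myrf (-0.33, adjusted p = 0.00215) and Incenp (-0.27, adjusted p = 0.0094). Tmem138 (-0.25, adjusted p = 0.049) and AABR07006258.2 (-0.23, adjusted p = 0.011) fell too, as did Fen1, a flap endonuclease next to Fads1 (-0.21, adjusted p = 0.012). Fth1, the ferritin heavy chain, was the gene that rose (0.14, adjusted p = 0.016). In Rnor_6.0, Fads3 lies at 226091774 to 226108332 (plus strand), Fads2 (ENSRNOG00000020440) at 226114413 to 226152524 (minus strand) and Fads1 (ENSRNOG00000020480) at 226234074 to 226249138 (plus strand) of chromosome 1.

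The 3 Fads promoters are set side by side because the genes are neighbours. A link between their motifs and their changes in level was not tested. In GRCr8 the windows are chr1:216252442-216252741 (Fads1, plus strand), chr1:216171984-216172283 (Fads2, minus strand) and chr1:216110623-216110922 (Fads3, plus strand). Capitals mark the CCAAT box, the GC box and TGACNNNGC on either strand. Fads1 holds 1 CCAAT and 1 reverse-strand GC box, Fads2 holds 1 GC box only, and Fads3 holds 6 matches, the most of the 3.
Fads1: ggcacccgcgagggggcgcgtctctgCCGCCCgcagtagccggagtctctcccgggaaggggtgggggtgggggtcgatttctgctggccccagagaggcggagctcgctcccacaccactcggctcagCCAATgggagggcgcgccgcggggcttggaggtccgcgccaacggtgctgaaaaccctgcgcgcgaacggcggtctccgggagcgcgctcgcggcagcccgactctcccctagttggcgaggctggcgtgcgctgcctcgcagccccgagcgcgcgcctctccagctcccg
Fads2: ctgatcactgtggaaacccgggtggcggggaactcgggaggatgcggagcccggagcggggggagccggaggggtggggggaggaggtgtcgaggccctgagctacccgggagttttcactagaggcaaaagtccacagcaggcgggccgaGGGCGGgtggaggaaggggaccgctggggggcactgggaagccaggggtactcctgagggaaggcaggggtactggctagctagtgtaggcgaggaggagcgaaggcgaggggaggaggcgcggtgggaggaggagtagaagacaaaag
Fads3: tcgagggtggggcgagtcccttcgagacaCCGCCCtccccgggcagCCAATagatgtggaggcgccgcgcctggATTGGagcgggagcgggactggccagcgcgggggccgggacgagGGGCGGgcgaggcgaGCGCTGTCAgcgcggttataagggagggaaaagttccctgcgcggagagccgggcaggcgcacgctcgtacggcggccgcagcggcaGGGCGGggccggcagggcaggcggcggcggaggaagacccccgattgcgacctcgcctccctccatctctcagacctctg

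Motif letters were counted on both strands in the 7 members with a RefSeq promoter, and in all 33469 promoters of that table for comparison. CCAAT stood in 4 of the 7 (Acly, Acss2, Elovl5 and Fads1), against 37.5% of all promoters. GGGCGG stood in 5 of the 7, against 33.1%, and TGACNNNGC in 3 (Acss2, Scd and Me1), against 12.1%. In Acss2 the TGACNNNGC match overlaps a GC box. CACGTG, the E-box, was found in Elovl5 only, against 6.42%. TCACNCCAC, a form of the sterol response element, was in 0 of the 7 and in 1.12% of all promoters, and the LXR element, a direct repeat of AGGTCA with 4 bases between, was in 0 and in 2 of the 33469. These are letter matches within 300 bases and not evidence of binding. Acaca, Fasn and Elovl6 are not in this count.

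Per exon length, the order of levels in GRK1 libraries was Acly at 283 ± 6.0 RPKM, Fads2 at 276 ± 2.5, Fads1 at 154 ± 10.1, Fasn at 122 ± 2.3, Elovl5 at 119 ± 6.1, Scd at 106 ± 4.2, Me1 at 57.5 ± 1.1, Acss2 at 47.4 ± 0.65, Acaca at 30.4 ± 0.73 and Elovl6 at 0.223 ± 0.033 RPKM. Acly and Fads2, and likewise Fasn and Elovl5, had overlapping ranges of mean ± SD there. In untreated libraries Acly was again highest at 180.1 ± 0.36 RPKM and Elovl6 lowest at 0.187 ± 0.015 RPKM. The order differed from that of GRK1 libraries in 1 place: Elovl5 at 88.8 ± 2.7 RPKM stood above Fasn at 74.0 ± 2.5 RPKM. Scd at 41.0 ± 0.95 RPKM was close to Me1 at 37.7 ± 0.58 RPKM in untreated libraries, whereas the 2 were well apart with GRK1. The exon lengths are those deposited, so an error in a length carries over into the level.

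**Figure D3:**
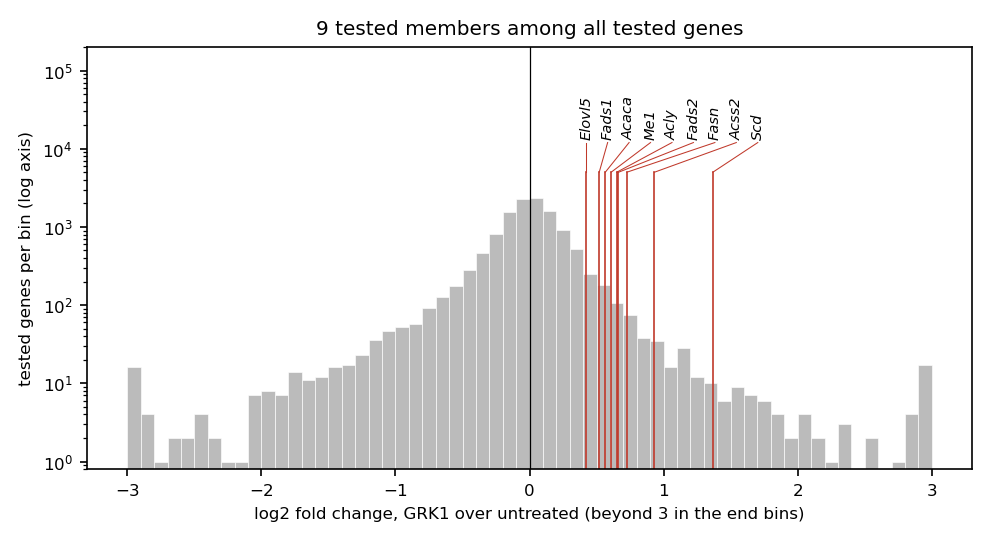
Distribution of log2 fold changes (GRK1 over untreated) of all 12316 tested genes, in grey on a log axis of gene counts, with the 9 tested genes of the pathway as red lines. All 9 lie to the right, between 0.42 for Elovl5 and 1.37 for Scd, where the bulk of the distribution is centred near 0.

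Enzymes that feed carbon and reducing power to synthesis rose in part. Of 10 genes listed, 7 were tested, 5 rose and 0 fell, with a median log2 fold change of 0.32. Over all tested genes 11.5% rose and 10.5% fell. Aacs, which activates acetoacetate for lipid synthesis, had 64.2 and 62.7 CPM in GRK1 libraries against 39.9 and 37.7 CPM in untreated libraries, a 1.63-fold rise (0.71 ± 0.05, adjusted p = 2.1e-04). Slc25a1, the carrier that exports citrate from mitochondria, had 161 and 156 CPM in GRK1 libraries against 114 and 119 CPM in untreated libraries and rose 1.36-fold (0.44 ± 0.05, adjusted p = 8.8e-04). Each group was clear of the other in both genes. Idh1, a cytosolic NADPH source, rose by 0.33 ± 0.05, pyruvate carboxylase Pc by 0.32 ± 0.06 and the mitochondrial malic enzyme Me2 by 0.21 ± 0.06 (adjusted p = 0.038). The call of Me2 was lost with upper-quartile scaling, by DESeq2, and without untreated replicate 1, untreated replicate 2 or GRK1 replicate 2.

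Of 9 genes listed as partners of malonyl-CoA and synthesis, 7 were tested, 0 rose and 0 fell at the adjusted threshold, with a median of 0.09, and 0 passed by DESeq2 or limma-voom either. With 11.5% higher and 10.5% lower over all tested genes, 0 of 7 is close to that background. These 7 were Acacb, Mlycd, Mcat, Oxsm, Mecr, Cbr4 and Mid1ip1, and none had an unadjusted p under 0.05. All but Mid1ip1 were expressed at a low level, with group means of at most 13.8 CPM, so the result covers those genes only. Acacb, the carboxylase whose malonyl-CoA restrains mitochondrial import of fatty acids, had 19 and 16 counts in GRK1 libraries and 17 and 12 in untreated libraries. At that depth its interval was wide (0.36 ± 0.33, adjusted p = 0.49). Thrsp, a lipogenic factor of liver and fat, had 0 counts in all 4 libraries.

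The rest of the elongation cycle moved little. Of 11 genes listed 8 were tested, and Tecr, the reductase of the last step, rose by 0.41 ± 0.05 (adjusted p = 0.0010). Elovl4, an elongase of very long chains, rose by 0.20 ± 0.05 (adjusted p = 0.026), and the other 6 did not pass. Closest on the upper side were Hsd17b12 (0.14 ± 0.05, adjusted p = 0.068) and Elovl1 (0.15 ± 0.05, adjusted p = 0.094), both picked with their values known. Hacd2, a dehydratase, came closest on the lower side (-0.20 ± 0.06, adjusted p = 0.054). Hacd2 was chosen for mention once its value was known, and with RLE size factors, upper-quartile scaling, a minimum count of 50, robust dispersions or the replicate block, or without GRK1 replicate 2, it passed as a fall. The call of Elovl4 was lost by DESeq2 and without any 1 of the 4 libraries, leaving 1 gene, Tecr. The list median was 0.14, and 2 of the 8 rose and 0 fell in the main test, where 11.5% of all tested genes rose and 10.5% fell.

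Of 10 other desaturases and their electron carriers, 7 were tested, where 11.5% of all tested genes rose and 10.5% fell. In this list 4 rose and 0 fell, with a median of 0.25. After Scd2 these were Cyb5b (0.31 ± 0.05, adjusted p = 0.0061), the cytochrome b5 of the outer mitochondrial membrane, Cyb5r3 (0.26 ± 0.05, adjusted p = 0.013), a reductase of cytochrome b5, and the ceramide desaturase Degs1 (0.25 ± 0.05, adjusted p = 0.013). Cyb5a, the cytochrome b5 of the endoplasmic reticulum, had 45.8 and 45.0 CPM in GRK1 libraries and 44.6 and 46.4 CPM in untreated libraries (-0.0040 ± 0.05, adjusted p = 0.97). The reductase Cyb5r1 was at -0.16 ± 0.06 (adjusted p = 0.10). Cyb5a and Cyb5r1 were picked with their values known. Without untreated replicate 2 or without GRK1 replicate 1, only 2 of the 4 were called, as Degs1 and Cyb5r3 then missed the threshold.

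Of 18 regulators listed, 16 stood in the table under their symbols and 15 were tested. Listed regulators that were not matched by symbol have no values here, so the list is covered in part. The SREBP genes rose and the other 13 did not pass, a share close to the 11.5% higher over all tested genes. Srebf1, whose protein drives fatty acid synthesis genes, had 191 and 213 CPM in GRK1 libraries against 121 and 139 CPM in untreated libraries. The rise was 1.56-fold (0.64 ± 0.08, adjusted p = 0.0017), with a wider spread within groups than most of the enzymes showed. Srebf2, whose protein mainly drives cholesterol genes, had 359.9 and 357 CPM in GRK1 libraries against 301 and 279.6 CPM in untreated libraries and rose 1.24-fold (0.31 ± 0.05, adjusted p = 0.0046). The table does not separate transcripts of Srebf1, so its isoforms cannot be told apart.

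The other 13 tested regulators had log2 fold changes between -0.17 and 0.19. They were the carbohydrate-response partners Mlx (0.01 ± 0.05) and Mlxip (-0.0018 ± 0.11), the oxysterol receptors Nr1h2 (0.19 ± 0.06, adjusted p = 0.072) and Nr1h3 (-0.04 ± 0.13), and their partner Rxra (-0.01 ± 0.07). Nr1h2 passed as a rise with robust dispersions (adjusted p = 0.039), with the replicate block (0.023) and without untreated replicate 1 (0.034). The NF-Y subunits Nfya, Nfyb and Nfyc were at -0.08 ± 0.05, 0.03 ± 0.08 and -0.17 ± 0.07, and the E-box factors Usf1 and Usf2 at -0.03 ± 0.06 and 0.01 ± 0.07. For AMP-activated kinase, which inhibits acetyl-CoA carboxylase, Prkaa1 was at -0.04 ± 0.05 and Prkab1 at -0.15 ± 0.05 (adjusted p = 0.086), and its upstream kinase Stk11 was at 0.07 ± 0.05. The signs of Mlx, Mlxip, Nr1h3, Rxra, Nfyb, Usf1, Usf2 and Prkaa1 turned round under at least 1 alternative scaling or left-out library. Prkaa2 had 0 counts in all 4 libraries, which allows at most 0.167 CPM in the shallowest. Transcript levels say nothing of the processing or phosphorylation by which most of these proteins are controlled.

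Of 18 genes listed that break fatty acids down, 16 were tested, 2 rose and 1 fell, with a median of 0.08. These counts are close to the 11.5% higher and 10.5% lower over all tested genes. The 2 that rose were the peroxisomal enzymes Hsd17b4 (0.25 ± 0.05, adjusted p = 0.011) and Acaa1a (0.27 ± 0.07, adjusted p = 0.029). Cpt1a, the gate of mitochondrial import, was at 100.1 and 93.8 CPM in GRK1 libraries and 97.2 and 87.0 CPM in untreated libraries, with overlapping groups (0.07 ± 0.07, adjusted p = 0.47). The 1 that fell, Cpt1c (-0.53 ± 0.13, adjusted p = 0.023), was not called by DESeq2 or without any 1 of the libraries. Acaa1a was not called by DESeq2 or without untreated replicate 2, GRK1 replicate 1 or GRK1 replicate 2, and Hsd17b4 not without untreated replicate 1.

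**Figure D4:**
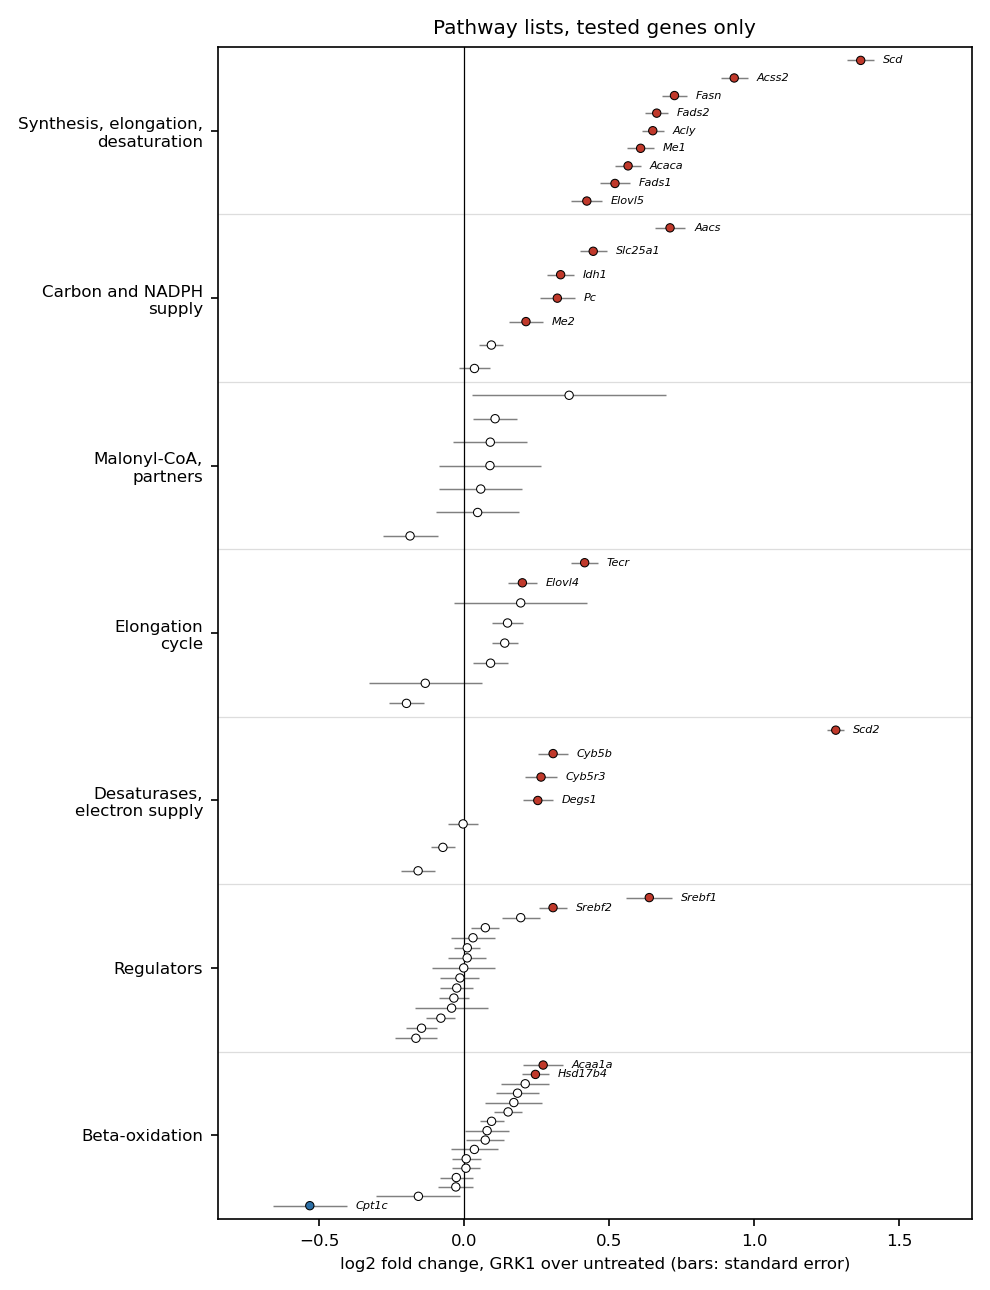
Log2 fold change (GRK1 over untreated) with its standard error for the tested genes of the pathway and of 6 companion lists, red where a gene rose, blue where it fell and open where it did not pass. The 9 pathway genes lie between 0.42 and 1.37, while most genes of the malonyl-CoA, elongation, regulator and beta-oxidation lists lie near 0.

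Outside the pathway, 5 genes had the levels most like its mean pattern over the 4 libraries, by Euclidean distance of centred log2 CPM: Ero1a (distance 0.0283), Abcc4, Atp6ap1, Asah1 and Pex26 (distance 0.0393). With 4 libraries and a pattern that is nearly 1 step between groups, many genes that rose by a similar amount would lie close to it.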

How the data were processed

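The members, gene lists, motifs and alternatives were chosen with earlier results of these data known. The submitters' processing notes name HISAT2 and HTSeq. Tool versions, strandedness and the treatment of multiply mapped reads were not given in the sources used here. Raw counts per Ensembl gene and 1 exon length per gene were deposited by the authors, with Rnor_6.0 positions per the file headers. No normalisation had been applied to the deposited counts.

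Genes were filtered with filterByExpr (minimum count 10, minimum total 15) and tested in edgeR 4.0.16 (R 4.3.3) by the quasi-likelihood F-test, two-sided, with TMM scaling, a group term alone and 2 residual degrees of freedom. P-values were adjusted over all 12316 genes tested. The standard error is the log2 fold change over the square root of F, and SDs are over 2 libraries. RPKM were computed here from scaled counts and the deposited exon lengths. Ratio intervals are exact binomial and cover counting error only, as does the floor of 3 counts. Replicates were not the same library deposited again: chi-square of their counts per degree of freedom was 4.49 for GRK1 and 4.39 for untreated. Named genes were the 10 members, all listed regulators matched by symbol, at most 5 called genes of each other list, and Acacb, Slc25a1, Scd2 and Cpt1a. Any other gene was picked with its values known. The beta-oxidation list leaves out 1 gene, which is not reported here. Promoters came from a RefSeq table on GRCr8, in which 7 of 10 members matched by symbol. The steps were tested on simulated data. Alternatives used DESeq2 1.42.0, limma-voom (limma 3.58.1), robust dispersions, other scalings and filters, a replicate block and each library left out.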

Additional observations from a re-analysis of the deposited data

How the results depend on the processing

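The 9 tested members stayed called and higher in all 13 alternatives, with log2 fold changes of 1.33 to 1.41 for Scd and 0.37 to 0.48 for Elovl5, and 0 fell. By DESeq2, 859 genes were higher and 853 lower, 1 elongation gene rose, and 1 beta-oxidation gene rose and 0 fell. With RLE size factors, upper-quartile scaling, a minimum count of 50 or robust dispersions, 1 elongation gene, Hacd2, fell, and with upper-quartile scaling 1 regulator, Prkab1, fell. Same-numbered libraries deviated together only weakly (Pearson's r = 0.06 and Spearman's rho = 0.12 across genes) and no label pairs them. With replicate number as a block, 1676 genes were higher and 1538 lower, 9 members rose, 3 regulators rose, Nr1h2 among them, as also with robust dispersions and without untreated replicate 1, and 1 elongation gene, again Hacd2, fell.

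Leaving out 1 library, with the lone library taken to vary as the other group does, gave 824 to 1110 genes higher and 859 to 936 lower, with 824 without untreated replicate 2 and 859 lower without GRK1 replicate 1. Elongation genes that rose numbered 1 each time and those that fell 0 to 1, other desaturase genes that rose 2 to 4, regulators that fell 0 to 1, beta-oxidation genes that rose 1 to 2 and those that fell 0. Signs of 9 small, uncalled changes turned round. Mlxip was at 0.0042 with library totals, and Mlx at -0.0172 and Usf2 at -0.0177 with upper-quartile scaling. Over the left-out libraries the ranges were -0.153 to 0.138 for Mlxip, -0.173 to 0.0960 for Nr1h3, -0.0598 to 0.117 for Nfyb, -0.0902 to 0.0377 for Usf1, -0.0568 to 0.0215 for Rxra, -0.0615 to 0.0807 for Usf2, -0.0844 to 0.00794 for Prkaa1, -0.0120 to 0.158 for Cpt1a, -0.0228 to 0.0455 for Mlx. The causes were not tested. Depth limits Elovl6, Acacb, Scd4 and untreated LOC681458, which have few counts.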
